A study of Mus musculus with 6 samples.

Results

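The 10 genes examined encode the core machinery of mitochondrial fusion and fission, and they were found by their symbols (Mfn1, Mfn2, Opa1, Oma1, Yme1l1, Dnm1l, Fis1, Mff, Mief1 and Mief2) among the 25631 genes of the expression table. All 10 were listed. RNA was sequenced from oocytes punctured out of large antral follicles of naturally aged ICR mice, 14 months old, that had been injected with equine chorionic gonadotropin. The control group, labelled aged and untreated, drank water (n = 3 libraries), and the aminophylline group drank 4 mM aminophylline for 1 week and then water for 3 weeks (n = 3 libraries). Aminophylline is a theophylline derivative that inhibits phosphodiesterases, the enzymes that break down cAMP. The comparison asked whether the expression of these genes in oocytes of aged mice differed after the drug. How many mice or oocytes went into a library is not stated, so the p-values measure the spread between these libraries, which may be technical.

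Mitochondria join and divide throughout life. The mitofusins Mfn1 and Mfn2 tether and merge outer membranes, and Opa1 merges inner membranes. The proteases Oma1 and Yme1l1 cleave Opa1. For division, the cytosolic GTPase Drp1, encoded by Dnm1l, is recruited to the outer membrane by the adaptors Mff, Mief1 and Mief2, with Fis1 as a further outer-membrane protein of this step. Oocytes hold large numbers of small, round mitochondria that pass to the embryo, and oocyte loss of Mfn1 or Dnm1l is known to impair follicle or oocyte development in mice.

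Levels are given as FPKM, read fragments per unit of transcript length, scaled to how many fragments were mapped in that library. The libraries held between 14112341 and 33641283 reads as recovered from the table, with control 2 the shallowest. All 12 oocyte markers were detected, with a summed level of 19839 to 27325 FPKM in control and 20833 to 24604 FPKM in aminophylline libraries. Of the 13 granulosa or cumulus markers, 4 reached 1 FPKM in at least 3 libraries, and their summed level was 17.8 to 25.9 FPKM in control and 20.6 to 26.3 FPKM in aminophylline libraries. The 13 listed macrophage markers summed to 266 FPKM in control 1 and to 82.8 to 104 FPKM in the other 5 libraries. Stromal and erythrocyte markers stayed under 2 FPKM in sum, and the 3 listed endothelial markers summed to 5.63 to 8.89 FPKM. The part of these markers in the results was not tested. In bulk RNA, fewer cells and less RNA per cell cannot be told apart.

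The genes lie on 8 chromosomes of the mouse (GRCm38.p6, RefSeq). Of the fusion genes, Mfn1 is at chr3:32529443-32579225 on the plus strand, Mfn2 at chr4:147873586-147904909 on the minus strand and Opa1 at chr16:29579281-29663127 on the plus strand. The protease genes Oma1 (chr4:103311875-103371869) and Yme1l1 (chr2:23155442-23199260) are both on the plus strand. Of the fission genes, Dnm1l is at chr16:16312228-16359038 on the minus strand, and Fis1 (chr5:136953275-136966234), Mff (chr1:82724890-82752390), Mief1 (chr15:80233964-80253372) and Mief2 (chr11:60728398-60732951) are on the plus strand. Annotated genes overlap Mfn1 (Gnb4), Yme1l1 (Mastl), Oma1 (the long noncoding Gm36523), Mff (the long noncoding C430014B12Rik and Gm39668) and Mief2 (Mir5100). Whether the counting used strand is not stated, so reads in the shared stretches could belong to either gene.

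The 250 bases before the first listed transcription start are shown for 5 genes. Mfn1, Opa1 and Mief1 varied together from library to library, as did Dnm1l (r of 0.86 with Mfn1), which is not shown. Oma1 and Mff were the members whose groups did not overlap in FPKM. All 5 are read from RefSeq promoters on GRCm38.p6, plus strand, 5′ to 3′, at chr3:32529232-32529481 (Mfn1), chr16:29579084-29579333 (Opa1), chr15:80233830-80234079 (Mief1), chr4:103313596-103313845 (Oma1) and chr1:82724640-82724889 (Mff). The stretch of Oma1 lies wholly inside the gene's span given above, after its first base at chr4:103311875. Capitals mark the motifs searched for that were found in these stretches.
Mfn1: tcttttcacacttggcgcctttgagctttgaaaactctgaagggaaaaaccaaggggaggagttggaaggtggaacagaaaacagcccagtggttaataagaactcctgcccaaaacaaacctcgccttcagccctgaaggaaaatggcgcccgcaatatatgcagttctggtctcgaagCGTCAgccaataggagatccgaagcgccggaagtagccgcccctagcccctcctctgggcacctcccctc
Opa1: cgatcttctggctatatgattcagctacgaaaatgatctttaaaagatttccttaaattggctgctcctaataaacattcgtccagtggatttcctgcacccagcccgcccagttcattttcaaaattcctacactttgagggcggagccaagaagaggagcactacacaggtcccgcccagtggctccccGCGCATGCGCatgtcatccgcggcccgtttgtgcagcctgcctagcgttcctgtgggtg
Mief1: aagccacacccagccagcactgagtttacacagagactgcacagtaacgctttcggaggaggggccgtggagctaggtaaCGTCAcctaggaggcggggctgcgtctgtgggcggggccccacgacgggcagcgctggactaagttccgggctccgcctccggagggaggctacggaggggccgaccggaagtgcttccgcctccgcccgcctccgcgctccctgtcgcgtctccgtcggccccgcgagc
Oma1: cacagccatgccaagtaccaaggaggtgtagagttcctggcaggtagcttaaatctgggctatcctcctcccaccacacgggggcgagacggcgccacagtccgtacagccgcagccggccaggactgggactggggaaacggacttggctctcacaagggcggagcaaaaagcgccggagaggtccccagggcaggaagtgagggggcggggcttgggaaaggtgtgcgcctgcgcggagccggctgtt
Mff: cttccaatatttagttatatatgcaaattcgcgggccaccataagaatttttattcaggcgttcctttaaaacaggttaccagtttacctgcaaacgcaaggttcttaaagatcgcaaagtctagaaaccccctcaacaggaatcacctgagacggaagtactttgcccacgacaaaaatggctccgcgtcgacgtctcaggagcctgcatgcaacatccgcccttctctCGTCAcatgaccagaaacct

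Motifs were searched on both strands in 300-base windows, 250 bases before to 50 after each listed start, in all 10 genes and in 27025 genes in all. The full cAMP response element, TGACGTCA, was in no member and in 2.03% of all genes. Its core TGACG, which the full element contains, was in 6 of 10 members (Mfn1, Mfn2, Oma1, Yme1l1, Mff and Mief1) and in 23% of all genes. In Mfn1, Mff and Mief1 the core reads on the minus strand and appears above as CGTCA, and in Oma1 it lies after the start, outside the bases shown. The NRF1 core GCATGCGC was in Opa1 alone among the members, as a pair of overlapping matches on opposite strands, and in 3.05% of all genes. The ERR motif TCAAGGTCA was in no member and in 0.466% of all genes. These matches describe letters in the windows and say nothing of whether a factor was bound.

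The fission adaptors Mff and Fis1 were the most abundant members and Mief2 was close to undetected. Per length and over the 6 libraries, Mff averaged 294 FPKM, Fis1 57.2 FPKM, Dnm1l 20.5 FPKM, Mfn1 7.19 FPKM, Oma1 5.94 FPKM, Mief1 3.15 FPKM, Opa1 2.94 FPKM, Yme1l1 1.84 FPKM, Mfn2 0.73 FPKM and Mief2 0.0334 FPKM. Among the 10340 genes tested, Mff stood at percentile 96.5, Fis1 at percentile 85.4 and Dnm1l at percentile 71.8, whereas Opa1 stood at percentile 29.2 and Yme1l1 at percentile 17.3. Among the 8 members tested, the mean level of Mff was 160 times that of Yme1l1. The ranges over libraries of neighbours in this order overlapped from Mfn1 down to Yme1l1, and did not overlap between Mff and Fis1, Fis1 and Dnm1l, Dnm1l and Mfn1, Yme1l1 and Mfn2, or Mfn2 and Mief2.

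**Figure D1:**
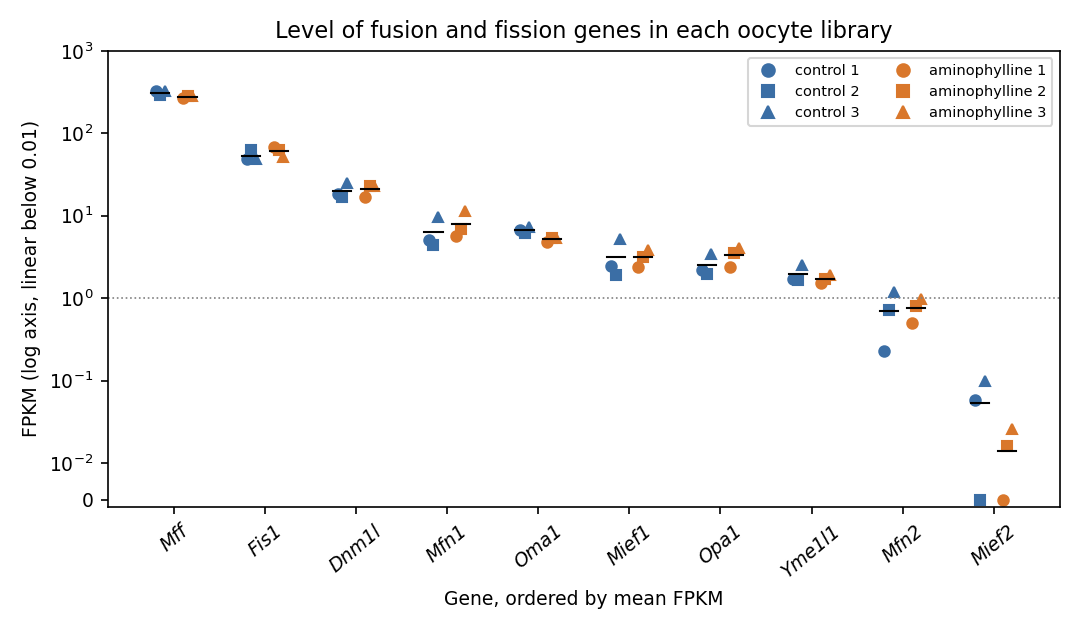
Level of each gene in FPKM (log axis, linear below 0.01) in the 3 control and 3 aminophylline libraries, with short lines at the group means and a dotted line at 1 FPKM. Mff lies near 300 FPKM in every library, Mfn2 lies around 1 FPKM or below, and Mief2 is listed at 0 in 1 library of each group.

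The place of Oma1 in this order rests on the length used. The FPKM of Oma1 was made with a length of 11255 bases, against 1915 bases for its longest coding transcript in GENCODE M21. With all its reads kept and divided by that shorter length, its mean would be 34.9 FPKM, above Dnm1l at 23 FPKM on its own GENCODE length. For the other members the length behind the FPKM was 0.971 to 1.33 times the GENCODE length. The length is the same in every library, so as a divisor it enters the comparison between groups only through the pseudocount. Where in the 11255 bases the reads of Oma1 lie is not known. A shorter annotation could count fewer of them, and its effect on the level and on the comparison was not tested.

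None of the 8 tested members passed the test between the groups, by limma on log2(FPKM + 1). A gene was tested if it reached 1 FPKM in at least 3 libraries, which Mfn2 and Mief2 did not. Among all 10340 tested genes, 0% passed an adjusted p of 0.05, and with the replicate number as a block 47 genes (0.455%) did, none of them a member. The smallest adjusted p of a member was 0.728, or 0.494 with the block. At an unadjusted p of 0.05, 4.41% of all genes were higher and 2.84% lower in the aminophylline group, and 0 members were in either class, by limma and by limma-voom on the recovered reads. With the block these shares were 9.88% and 4.3%, with 0 members. The unmoderated linear model, nearest to the unpaired t test of the study, put 2 members lower at an unadjusted p of 0.05, Oma1 (adjusted p = 0.696) and Mff (adjusted p = 0.753), beside 2.61% of all genes lower. The log2 difference was above 0 for 5 members and below 0 for 3, with a median of 0.05 beside 0.10 over all tested genes. The groups did not overlap for 2 members, Oma1 and Mff, both lower in the aminophylline group, where 4.96% of all genes were without overlap and lower and 7.51% without overlap and higher. Rescaled to a common sum (TPM), Oma1 stayed without overlap, at 10.5 to 14.1 TPM in control and 8.24 to 9.9 TPM in aminophylline libraries, whereas Mff overlapped, at 491 to 633 TPM and 462 to 518 TPM. Between same-numbered libraries, Mfn1 and Opa1 were higher in the aminophylline library in 3 of 3 pairs, as were 25.9% of all tested genes, and Oma1 and Mff were lower in 3 of 3 pairs, as were 10.5%. With 3 pairs an exact sign-flip permutation test cannot go below p = 0.25.

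**Figure D2:**
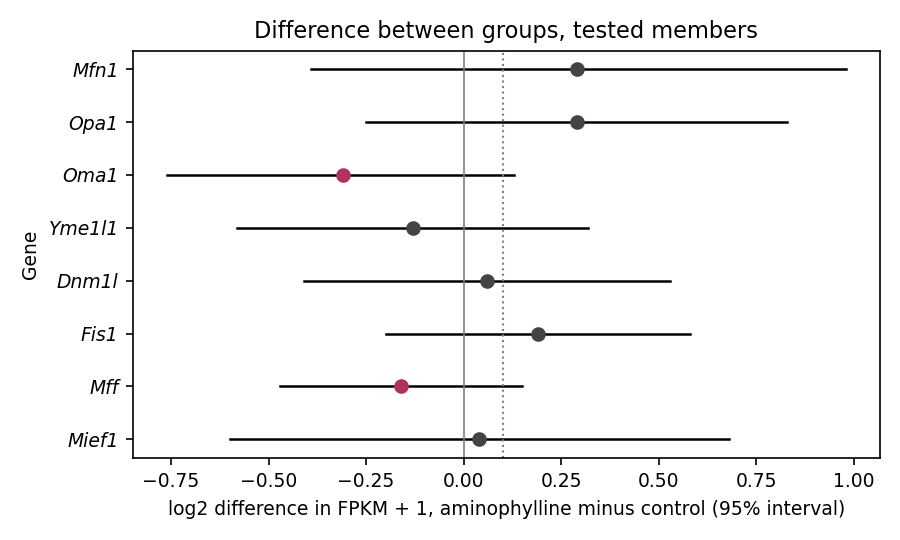
Difference in log2(FPKM + 1), aminophylline minus control, for the 8 tested members (points, with 95% intervals from limma). Every interval includes 0, the dotted line marks the median of all tested genes at 0.10, and the coloured points are Oma1 and Mff, whose groups did not overlap in FPKM.

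Mfn1, the more abundant mitofusin here, measured 5.13, 4.38 and 9.7 FPKM in the control libraries and 5.61, 6.93 and 11.4 FPKM in the aminophylline libraries. The third library of each group was the highest and the groups overlapped. The means were 6.4 ± 2.88 and 7.98 ± 3.03 FPKM (SD, n = 3 each). The difference was 0.29 on the log2(FPKM + 1) scale (SE 0.31, 95% interval -0.39 to 0.98, limma adjusted p = 0.803), and it ranged from 0.035 without aminophylline 3 to 0.59 without control 3.

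Opa1, the inner-membrane fusion GTPase, measured 2.22, 1.98 and 3.44 FPKM in control and 2.4, 3.49 and 4.09 FPKM in aminophylline libraries. The groups overlapped, with aminophylline 1 close to the lower pair of controls. The means were 2.55 ± 0.78 and 3.33 ± 0.857 FPKM (SD, n = 3 each). The difference was 0.29 on the log2(FPKM + 1) scale (SE 0.25, 95% interval -0.25 to 0.83, limma adjusted p = 0.767), and it ranged from 0.16 without aminophylline 3 to 0.46 without control 3.

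Mfn2, which also tethers mitochondria to the endoplasmic reticulum, measured 0.226, 0.711 and 1.18 FPKM in control and 0.497, 0.796 and 0.973 FPKM in aminophylline libraries, from 44 to 216 reads a library. The lowest and the highest value were both in the control group. The means were 0.704 ± 0.475 and 0.755 ± 0.241 FPKM (SD, n = 3 each), and with no filter on low values the log2 difference was 0.07 (limma adjusted p = 0.943).

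Oma1, a stress-activated protease of the inner membrane that cleaves Opa1, measured 6.68, 6.16 and 7.22 FPKM in control and 4.8, 5.4 and 5.36 FPKM in aminophylline libraries. Every aminophylline library was below every control library. The means were 6.69 ± 0.528 and 5.19 ± 0.335 FPKM (SD, n = 3 each), a fold of 0.805 on the FPKM + 1 scale. The difference of -0.31 on the log2(FPKM + 1) scale was within its error under the shared variance (SE 0.20, 95% interval -0.76 to 0.13, limma adjusted p = 0.728). Its reads ranged from 979 to 2584 a library.

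Yme1l1, the protease that cleaves Opa1 without stress, measured 1.73, 1.64 and 2.55 FPKM in control and 1.53, 1.7 and 1.89 FPKM in aminophylline libraries. Control 3 was the highest and the groups overlapped. The means were 1.98 ± 0.502 and 1.7 ± 0.181 FPKM (SD, n = 3 each), and the log2 difference was -0.13 (SE 0.21, 95% interval -0.58 to 0.32, limma adjusted p = 0.876).

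Dnm1l, which encodes the GTPase that constricts mitochondria, measured 18.4, 16.9 and 25 FPKM in control and 16.7, 23.2 and 23 FPKM in aminophylline libraries. Values of the groups interleaved. The means were 20.1 ± 4.33 and 20.9 ± 3.69 FPKM (SD, n = 3 each), and the log2 difference was 0.06 (SE 0.21, 95% interval -0.41 to 0.53, limma adjusted p = 0.947), below 0 when libraries were centred on their median gene.

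Mff, the main outer-membrane receptor of Drp1, measured 322, 289 and 323 FPKM in control and 269, 283 and 281 FPKM in aminophylline libraries. Every aminophylline library was below every control library in FPKM, with control 2 close to aminophylline 2, and the groups overlapped in TPM. The means were 311 ± 19.4 and 278 ± 7.25 FPKM (SD, n = 3 each). The log2 difference was -0.16 (SE 0.14, 95% interval -0.47 to 0.15, limma adjusted p = 0.769). With 8917 to 23696 reads a library, Mff was the most deeply counted member.

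Fis1, a small tail-anchored outer-membrane protein, measured 48.9, 62.1 and 49.3 FPKM in control and 68.8, 62 and 52.1 FPKM in aminophylline libraries. The groups overlapped through control 2. The means were 53.4 ± 7.52 and 61 ± 8.41 FPKM (SD, n = 3 each), and the log2 difference was 0.19 (SE 0.18, 95% interval -0.20 to 0.58, limma adjusted p = 0.787), and it ranged from 0.096 without aminophylline 1 to 0.30 without control 2.

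Mief1 and Mief2 encode paired adaptors that gather Drp1 at the outer membrane. Mief1 measured 2.46, 1.91 and 5.17 FPKM in control and 2.4, 3.12 and 3.82 FPKM in aminophylline libraries. Control 3 was the highest and control 2 the lowest. The means were 3.18 ± 1.75 and 3.11 ± 0.708 FPKM (SD, n = 3 each), and the log2 difference was 0.04 (SE 0.29, 95% interval -0.60 to 0.68, limma adjusted p = 0.978), below 0 when libraries were centred on their median gene or quantile normalised. Mief2 was read 5, 0 and 8 times in control and 0, 1 and 2 times in aminophylline libraries, around the floor of 3 reads. In sum 13 of 79556041 control reads and 3 of 83595979 aminophylline reads were Mief2, a ratio of 4.55 (exact 95% interval 1.25 to 24.9), an interval that covers counting error only and not the spread between libraries, 1 of which in each group was at 0.

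The spread within a group differed between genes. In control libraries the coefficient of variation was 6.25% for Mff and 7.89% for Oma1, but 45% for Mfn1 and 54.9% for Mief1. In aminophylline libraries it was 2.61% for Mff, 6.46% for Oma1, 38% for Mfn1 and 22.7% for Mief1. All 8 tested members had the smaller coefficient in the aminophylline group, a difference that was not tested. How many of all tested genes share this was not counted, so it is not read as a trait of the members.

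Ratios within a library, which do not depend on a library's scale, overlapped between the groups for each ratio defined in all 6 libraries. The planned ratio of Mief1 to Mief2 was undefined in control 2 and aminophylline 1, where Mief2 had 0 reads. It was 41.8 in control 1, 51.9 in control 3, 195 in aminophylline 2 and 147 in aminophylline 3. These values rest on 1 to 8 reads of Mief2 and were not compared. Mfn1 exceeded Mfn2 by 22.7, 6.16 and 8.25 times in control and by 11.3, 8.7 and 11.7 times in aminophylline libraries. The control value of 22.7 comes from control 1, where Mfn2 had 44 reads, and the log2 difference of this ratio between groups ranged from -0.55 to 0.55 when 1 library was left out, with 0.55 without control 1. Mff exceeded Fis1 by 6.58, 4.65 and 6.55 times in control and by 3.92, 4.56 and 5.39 times in aminophylline libraries, with means of 5.93 ± 1.11 and 4.62 ± 0.738 (SD, n = 3 each). Between same-numbered libraries the log2 difference of this ratio was -0.75, -0.03 and -0.28, below 0 in 3 of 3 pairs. By the two-sided exact sign-flip permutation test p was 0.25, which 3 pairs cannot go below. Levels of Mff and Fis1 correlated at 0.63 and -0.86 with the mean transcript length of a library's reads, and the ratio does not remove this. The ratio of Yme1l1 to Oma1 was 0.293 ± 0.0526 in control and 0.328 ± 0.021 in aminophylline libraries (SD, n = 3 each). The summed fusion GTPases Mfn1, Mfn2 and Opa1 stood at 0.468 ± 0.0904 of Dnm1l in control and at 0.57 ± 0.127 in aminophylline libraries (SD, n = 3 each). Although the groups overlapped, this ratio was higher in the aminophylline library in 3 of 3 same-numbered pairs, by 0.30, 0.21 and 0.32 on the log2 scale (mean 0.28 ± 0.06, SD). The two-sided exact sign-flip permutation p was 0.25, the smallest that 3 pairs allow. No source says that a library number marks a pair. How often ratios of other genes keep 1 direction in 3 of 3 pairs was not counted, for this ratio or for Mff to Fis1. The log2 difference between the group means, 0.28, ranged from 0.09 without aminophylline 3 to 0.45 without control 3.

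**Figure D3:**
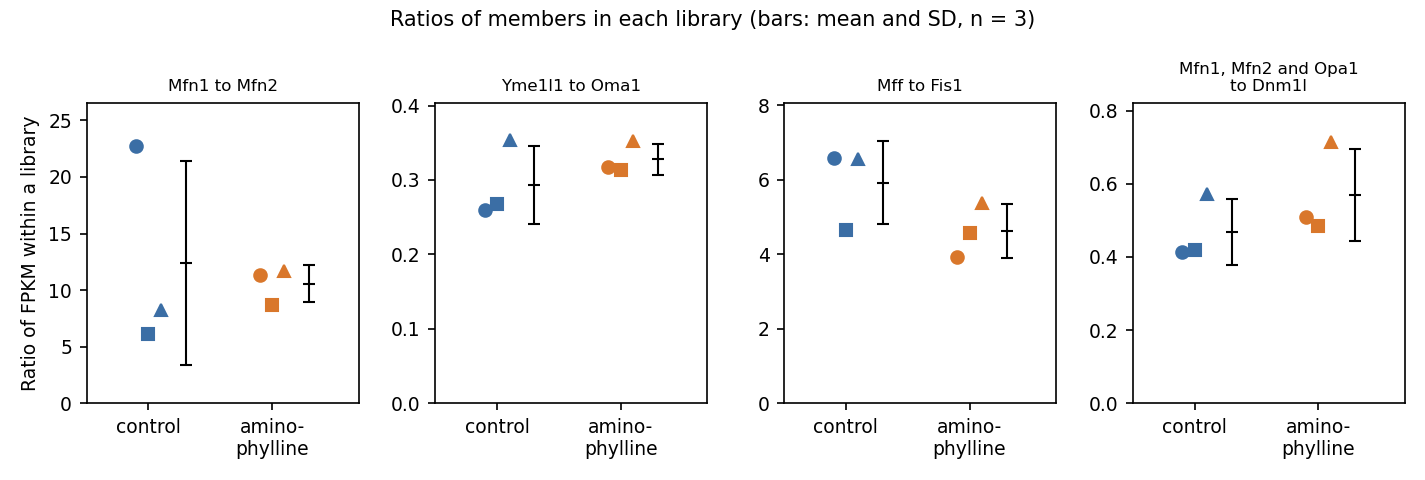
Ratios of FPKM within each library for 4 pairings of members, with circles, squares and triangles for libraries 1, 2 and 3 and bars for the mean and SD (n = 3). In each panel the values of the groups overlap, and control 1 stands apart in the ratio of Mfn1 to Mfn2.

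Several members varied together over the 6 libraries. Of the 28 pairs of tested members, 5 had a Pearson's r of at least 0.9, beside 3.02% of all pairs of tested genes, and 8 had at least 0.8, beside 8%. Pearson's r of log2(FPKM + 1) was 0.94 between Mfn1 and Opa1, 0.90 between Mfn1 and Mief1 and 0.83 between Opa1 and Mief1. Dnm1l went with them, at 0.90 with Opa1 and 0.92 with Mief1. Yme1l1 correlated at 0.89 with Mief1 and 0.76 with Dnm1l, and also at 0.69 with Oma1 and 0.66 with Mff. Oma1 and Mff correlated at 0.95 with each other, Oma1 at 0.02 with Mfn1, and Fis1 at -0.82 with Mff. These are descriptions over 6 libraries that differ in depth and in the mix of transcript lengths, differences that all genes share. Control 3 was the highest library for 5 of the 8 tested members and aminophylline 1 the lowest for 4. The same shares over all tested genes were not counted, so this is not read as a trait of the members.

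**Figure D4:**
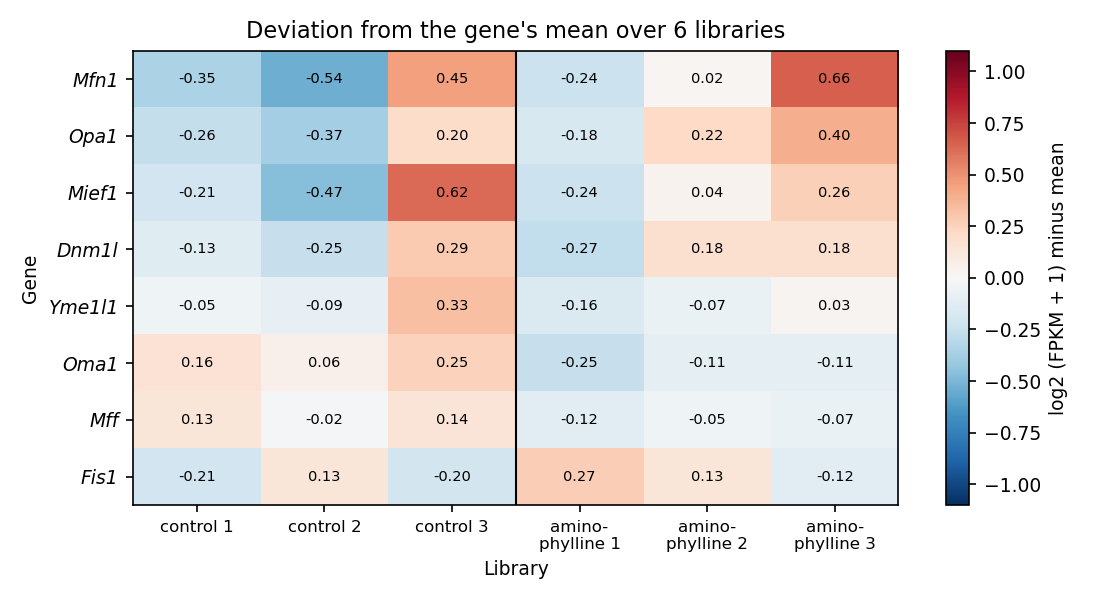
Deviation of each tested member in each library from its mean over the 6 libraries, in log2(FPKM + 1). Mfn1, Opa1 and Mief1 share low values in control 2 and high values in control 3 and aminophylline 3, whereas Oma1 and Mff are below their mean in all 3 aminophylline libraries.

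The mean transcript length behind a library's reads moved with these values. It was 3507, 3285 and 3697 bases in control and 3294, 3448 and 3589 bases in aminophylline libraries. Its r with the level was 0.91 for Mief1, 0.88 for Yme1l1, 0.86 for Dnm1l, 0.81 for Mfn1, 0.71 for Opa1, 0.63 for Mff and 0.55 for Oma1, against -0.86 for Fis1, whose transcript is the shortest of the members. With each library corrected for transcript length, an alternative chosen after the data were seen, the log2 difference was 0.21 for Mfn1, 0.20 for Opa1, -0.40 for Oma1, -0.21 for Yme1l1, -0.20 for Mff, 0.076 for Fis1, -0.017 for Dnm1l and -0.048 for Mief1, and none passed the adjusted test. Dnm1l and Mief1 thereby changed sign.

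Around the core machinery, 56 further genes in 6 lists were examined, of which 47 were tested. At an unadjusted p of 0.05, 6 were higher (12.8%) and 1 lower (2.13%) in the aminophylline group, beside 4.41% and 2.84% of all tested genes, and the smallest adjusted p was 0.661 by limma. The higher count included Dnm2 and Spg7, which met the filter only through their aminophylline libraries. It was 3 when libraries were centred on their median gene and 1 without control 1, fits in which the share of all tested genes was not counted. The median log2 difference was 0.13, beside 0.10 over all tested genes. Of the related genes 30 were above 0 and 17 below, and this split was not counted over all tested genes. Like Dnm2 and Spg7, the tested genes Ppp3cb and Fkbp8 reached 1 FPKM in no control library but control 3. By list, the median was 0.18 for 7 tested fusion helpers, -0.03 for 8 fission helpers, 0.19 for 13 modifiers of Drp1 and mitofusins, 0.25 for 9 members of the cristae junction complex MICOS and its partners, 0.11 for 5 transport genes and -0.04 for 5 mitophagy genes.

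None of the following genes passed the adjusted test. Dnajc11, an outer-membrane partner of MICOS, measured 26.7, 33.8 and 42 FPKM in control and 50.2, 50.5 and 61 FPKM in aminophylline libraries, without overlap (log2 difference 0.66, limma adjusted p = 0.661). Stoml2, an inner-membrane scaffold of fusion, measured 58, 60.5 and 58.3 FPKM in control and 75.4, 76.4 and 73.8 FPKM in aminophylline libraries, with log2 difference 0.35. Both genes were higher in each aminophylline library than in any control library. Bnip3, a mitophagy receptor, measured 89.4, 40.4 and 60.7 FPKM in control and 38.2, 33.8 and 40.8 FPKM in aminophylline libraries, with log2 difference -0.67, and its groups overlapped through control 2. Without control 1, the library with the highest Bnip3 and with macrophage markers at 266 FPKM in sum, the difference was -0.39 and the unadjusted call was lost, and it was also lost without aminophylline 2. Further genes at an unadjusted p of 0.05 included Dnm2, a dynamin, with a log2 difference of 0.48, the protease subunit Spg7 at 0.46 and the MICOS core subunit Micos10 at 0.44. Dnm2 measured 0.649, 0.757 and 1.37 FPKM in control and 1.47, 1.51 and 2.03 FPKM in aminophylline libraries. Spg7 measured 0.44, 0.58 and 1.07 FPKM in control and 1.24, 1.18 and 1.49 FPKM in aminophylline libraries. Of the controls, only control 3 reached 1 FPKM for Dnm2 and Spg7, so both met the filter only through the aminophylline group. With 1 library left out, Dnajc11 ranged from 0.50 to 0.82 and kept an unadjusted p under 0.05 in each fit, whereas Stoml2, Dnm2, Spg7 and Micos10 lost it in at least 1.

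Abundant genes of each list are given by their mean FPKM over the 6 libraries and their log2 difference. The rhomboid protease Parl averaged 1135 FPKM (0.03, below 0 when libraries were centred on their median gene or rescaled to TPM) and the prohibitin Phb2 171 FPKM (0.18). The fission regulator Mtfr1l averaged 71.4 FPKM (-0.04) and its paralog Mtfr1 20.5 FPKM (-0.37, without overlap, limma adjusted p = 0.688). None of these passed the test. The ubiquitin ligase Marchf5 averaged 109 FPKM (-0.21). The MICOS subunits averaged 283 FPKM for Apoo (0.08, below 0 with median centring) and 162 FPKM for Chchd6 (0.28). Levels of MICOS subunits overlapped between the groups in both cases. The transport genes averaged 55.4 FPKM for Armc10 (-0.39) and 37.1 FPKM for Rhot1 (-0.05), and the mitophagy receptors 74.6 FPKM for Bnip3l (-0.04) and 50.5 FPKM for Bnip3.

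**Figure D5:**
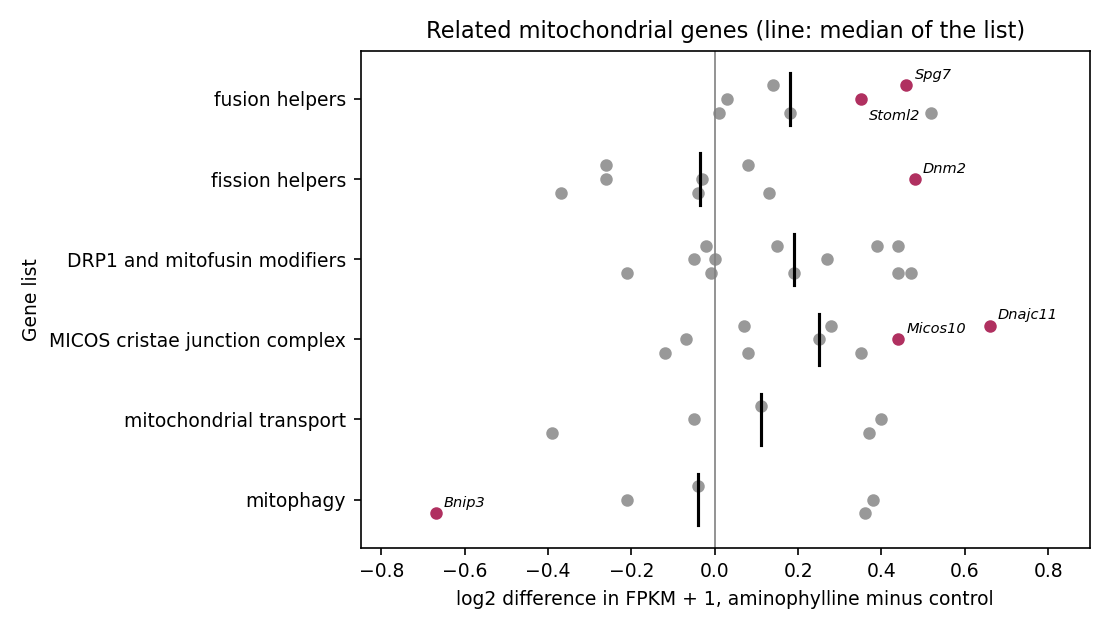
Difference in log2(FPKM + 1), aminophylline minus control, for the tested related genes by list (points, 1 gene not drawn), with a black line at each list's median. The 6 coloured genes had an unadjusted limma p of 0.05 or less, and none passed adjustment.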

How the data were processed

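RNA was sequenced in 6 oocyte libraries, 3 per group. The authors deposited FPKM values per gene, already divided by transcript length and library size. The build was GRCm38 (mm10) per the labels, and the aligner, counter and annotation are not given in the sources used here. Columns were matched to libraries by name. Whole reads and lengths were recovered from the FPKM steps for 22583 genes. Group differences were tested two-sided on log2(FPKM + 1) with limma 3.58.1 in R 4.3.3 (moderated variance with a trend), for genes at 1 FPKM or more in at least 3 libraries, with Benjamini-Hochberg adjustment over all 10340. The same steps were run on simulated data with planted changes far larger than the members' differences. That run therefore does not show whether differences of the members' size could be found.

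Libraries carry the numbers 1 to 3 in both groups, and no source says that a number marks shared mice or a batch. The deviations from the group means of same-numbered libraries correlated at 0.138, 0.14 and 0.552, each over 0.1, so a fit with the number as a replicate block was run, and its calls over all genes (1022 higher and 445 lower at an unadjusted p of 0.05) differ from those without it (456 and 294).

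Named genes were the 10 members, related genes with an unadjusted p under 0.05, the 2 most abundant genes of each related list, and for Mfn1, Mfn2, Opa1 and Dnm1l the 3 genes most correlated with each. Of these, 1 related gene is not reported here, although the counts include it. The members and lists were chosen with earlier results of these data known. Alternatives covered scaling, filter, pseudocount, model, weights, block and leaving out each library. A correction for transcript length and the comparison of ratios within same-numbered pairs were added after the data were seen. Promoters are from RefSeq on GRCm38.p6, and transcript lengths from GENCODE M21.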

Additional observations from a re-analysis of the deposited data

How the results depend on the processing

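The members' 8 log2 differences were recomputed in 149 alternative values, of which 133 kept direction and side of the adjusted threshold, 16 reversed and 0 passed it. The replicate block on the main scale changed no call of a member at either threshold (Oma1 -0.31, adjusted p = 0.494). The number of members lower at an unadjusted p of 0.05 was 0, against 1 (Oma1) with no filter, with median centring and the replicate block, and with length correction and the replicate block, and 2 (Oma1 and Mff) with the unmoderated model. Of these alternatives, the share of all tested genes was counted only for the unmoderated model, with 2.61% lower. Oma1 stayed between -0.40 and -0.29 with all libraries, with adjusted p from 0.297 to 0.915. Dnm1l was -0.018 with median centring and -0.017 with length correction, with or without the block, and ranged from -0.046 to 0.22 when 1 library was left out. Mief1 was -0.071 with quantile normalization, -0.042 with median centring and -0.048 with length correction, with or without the block, and ranged from -0.18 to 0.36. Yme1l1 ranged from -0.21 to 0.0071, above 0 without control 3. Median centring moves the median of all genes from 0.10 toward 0 by construction, and no other cause was tested.

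Of the related genes, 6 were higher at an unadjusted p of 0.05, against 3 with TPM, quantile normalization, median centring, the unmoderated model or length correction and 12 with library weights, and 1 to 11 with 1 library left out (1 without control 1 or aminophylline 2, 2 without aminophylline 3, 11 without control 3). The lower count of 1 was 3 with quantile normalization, median centring with or without the replicate block, library weights or length correction, 0 with the unmoderated model, 2 with the replicate block and 4 with length correction and the block, and ranged from 0 (without control 1 or aminophylline 2) to 5 (without control 2). For most of these alternatives the share of all tested genes was not counted, so the counts are not read as a trait of the related genes. Parl reversed to -0.013 with TPM, -0.051 with median centring, -0.0038 with library weights and -0.055 with length correction, Mtfr1l to 0.06 with library weights, and Apoo to -0.004 with median centring. With 1 library left out, Parl ranged from -0.027 to 0.063, Mtfr1l from -0.14 to 0.051, Apoo from -0.0031 to 0.19, Rhot1 from -0.23 to 0.11 and Bnip3l from -0.064 to 0.00066. Mief2 lay near the floor of 3 reads, and the part of depth in this was not tested.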

Other observations

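The genes whose levels were most like those of the GTPases over the 6 libraries are given as descriptions, among 10339 other tested genes or, for Mfn2, 10340. For Mfn1 they were Mfsd9 (Pearson's r 0.9994), the mitochondrial folate enzyme gene Mthfd2 (0.9990) and Cnst (0.9965), of 27 genes above 0.99. For Opa1 they were Adamtsl1 (0.9981), Lrrc14 (0.9976) and the DNA helicase gene Helq (0.9976), of 53 genes above 0.99. For Mfn2 they were Clptm1 (0.9974), Rnf26 (0.9921) and Cyb561a3 (0.9915), of 4 above 0.99, and for Dnm1l they were Alms1 (0.9939), Plagl2 (0.9913) and the O-GlcNAc transferase gene Ogt (0.9909), of 4 above 0.99. The 6 libraries differ in depth and in the mix of transcript lengths, and all genes share these differences.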
